A study of Mus musculus with 18 samples.

Results

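The 5 genes of ketone body metabolism examined here, *Bdh1*, *Bdh2*, *Acat1*, *Oxct1* and *Slc16a1*, were measured in the ileum of mice that overexpress *Ppara* in the intestinal epithelium. The genes were chosen by symbol, and all 5 were found among the 55487 genes counted. Of these, 4 (*Bdh1*, *Acat1*, *Oxct1* and *Slc16a1*) had more than 3 CPM (counts scaled to a common library total) in at least 4 libraries and were therefore among the 12645 protein-coding genes compared between genotypes. *Bdh2* stayed under this limit in every library and was compared separately.

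The mice carried a CAG-*Ppara*,-*EGFP* transgene, on a C57BL/6J background, that is inverted into its active orientation by Cre recombinase. Both IEC-*Ppara* groups, heterozygous and homozygous for the transgene, also carried *Villin-CreERT2*, a tamoxifen-dependent Cre driven by a promoter of the intestinal epithelium, whereas the controls were littermates without Cre. All mice, controls included, ate chow and were used at an age of 8 to 13 weeks. They received tamoxifen (100 mg/kg) once a day on 3 days, and their ileum was collected 2 weeks later. There were 6 controls (3 female, 3 male), 6 heterozygous mice (2 female, 4 male) and 6 homozygous mice (2 female, 4 male), with 1 library each. The tissue was whole-thickness ileum, in which RNA of epithelium, muscle layers, connective tissue, nerves and immune cells is mixed, and fewer cells of a type cannot be told apart from less RNA per cell.

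Ketone bodies, chiefly acetoacetate and β-hydroxybutyrate, are small water-soluble fuels made from acetyl-CoA when fatty acid oxidation runs high. Thiolases join and split acetoacetyl-CoA, dehydrogenases convert acetoacetate and β-hydroxybutyrate into each other, and a CoA transferase activates acetoacetate with succinyl-CoA so that it can be burned in mitochondria. Monocarboxylate transporters carry ketone bodies across the plasma membrane together with a proton. In the gut, ketone bodies are known as a product of epithelial fat oxidation and as a signal to intestinal stem cells, and PPARα is known as a regulator of ketone body synthesis in liver and intestine.

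The libraries held from 38528522 to 50376371 counts. *Ppara*, the overexpressed gene, lay between 25.8 and 47.4 CPM in controls (median 39.4), between 107 and 196 CPM in heterozygous mice (median 136) and between 184 and 279 CPM in homozygous mice (median 211). The controls lay apart from both other groups, while the 2 transgenic groups overlapped, and reads of the transgene and of the endogenous gene are counted together. The 3 markers that define ileum (*Slc10a2*, *Fgf15* and *Guca2b*) summed to between 623 and 1189 CPM in all libraries. The 10 markers of epithelium summed to between 15706 and 21224 CPM with overlapping groups. The 10 markers of smooth muscle varied more, from 521 to 5698 CPM among controls and from 657 to 4156 CPM among heterozygous libraries, against 3890 to 8970 CPM among homozygous ones. Control replicate 6 and heterozygous replicate 3 held far less smooth muscle RNA than the other libraries. The 10 markers of B cells were uneven as well, from 17.3 to 600 CPM among controls. They summed to between 14.5 and 339 CPM among heterozygous libraries and between 12.1 and 98.2 CPM among homozygous ones.

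The genes differ in the DNA in front of their start sites, which is shown here for the members at the ends of this range. Among the RefSeq promoters of *Bdh1*, *Bdh2*, *Oxct1* and *Slc16a1* (build GRCm38.p6), that of *Slc16a1* has the most CG dinucleotides and that of *Bdh2* the fewest, and *Acat1* is not shown. In the 250 bases before each start, printed 5′ to 3′ on the plus strand with every CG in capitals, *Slc16a1* (chr3:104638414-104638663) has 37 CG and *Bdh2* (chr3:135280971-135281220) has 5.

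Slc16a1: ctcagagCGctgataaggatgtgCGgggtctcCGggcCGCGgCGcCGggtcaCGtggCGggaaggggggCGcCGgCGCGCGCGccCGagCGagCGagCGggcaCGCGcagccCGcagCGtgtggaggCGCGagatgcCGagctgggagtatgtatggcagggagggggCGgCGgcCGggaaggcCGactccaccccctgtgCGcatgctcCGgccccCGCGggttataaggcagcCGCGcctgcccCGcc

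Bdh2: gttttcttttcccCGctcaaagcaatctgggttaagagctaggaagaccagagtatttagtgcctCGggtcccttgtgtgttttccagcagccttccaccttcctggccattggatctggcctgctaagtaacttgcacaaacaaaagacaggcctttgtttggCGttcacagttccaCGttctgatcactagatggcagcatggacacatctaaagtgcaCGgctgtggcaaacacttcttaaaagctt

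Over 32851 RefSeq promoters the median was 6 CG in 250 bases, and 97.8% of them had fewer than *Slc16a1*, against 44.4% with fewer than *Bdh2*. *Oxct1* had 6 CG, and the 2 start sites listed for *Bdh1* had 7 and 9. The letters AGGTCA, the single element that PPARα and its partner RXR bind in pairs, were searched on both strands. They were in none of the 5 windows of the members and in 14% of all windows, and 2 copies in the same direction with 1 base between them were in 0.0335% of all windows. These are matches of letters only, and no binding was measured.

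Measured per length, as FPKM (fragments scaled to gene length and library total), *Oxct1* had the highest level of the 5 genes in all 18 libraries and *Bdh2* the lowest. In controls *Oxct1* stood at 58.5 ± 4.44 FPKM (SD, n = 6), *Acat1* at 22.8 ± 1.42, *Bdh1* at 21.0 ± 1.45, *Slc16a1* at 18.5 ± 1.22 and *Bdh2* at 0.139 ± 0.106. *Oxct1* exceeded 96.5% of the 21936 protein-coding genes in the control mean, *Acat1*, *Bdh1* and *Slc16a1* between 88.3% and 90.4% of them, and *Bdh2* 32.2%. The 3 genes in the middle lay close together. The control ranges of *Acat1* and *Bdh1* overlapped (20.4 to 24.5 FPKM against 19.7 to 23.0), but within a library *Acat1* was above *Bdh1* in 17 of 18 cases. The control ranges of *Bdh1* and *Slc16a1* (17.7 to 20.7 FPKM) overlapped as well, and *Bdh1* was above *Slc16a1* in 6 of 6 controls and in 14 of all 18 libraries. These orders are given without a test. The same order of means held in heterozygous and in homozygous mice.

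**Figure D1:**
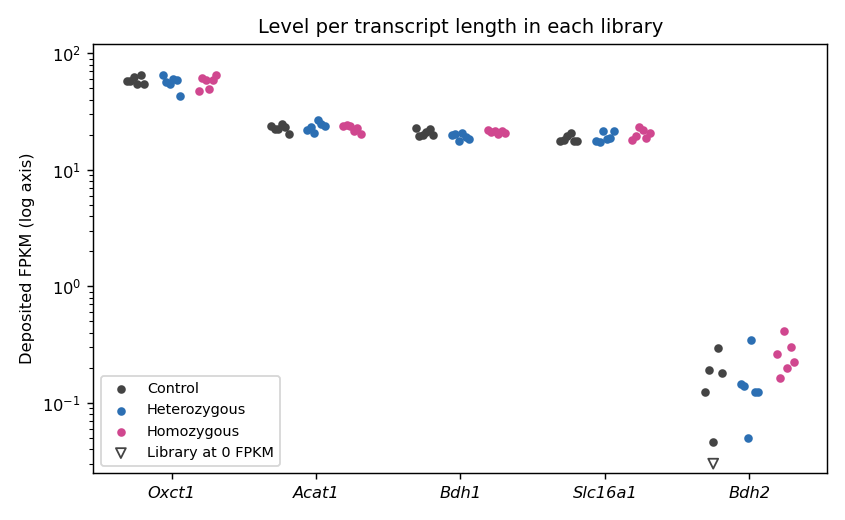
Deposited FPKM of the 5 ketone body genes on a log axis, 1 point per library, with controls in grey, IEC-*Ppara* heterozygous mice in blue and IEC-*Ppara* homozygous mice in pink. *Oxct1* lies on top, *Acat1*, *Bdh1* and *Slc16a1* form a middle band between 17.4 and 26.7 FPKM, and *Bdh2* reaches 0.412 FPKM at most, with 1 control library at 0 drawn as an open triangle.

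The 4 members tested varied less between controls than most genes. In controls the coefficient of variation of the CPM was 6.91% for *Bdh1*, 6.22% for *Acat1*, 7.59% for *Oxct1* and 6.57% for *Slc16a1*, beside a median of 11.8% over the protein-coding genes tested. The tested genes were not matched to the members for level, and they include genes near the 3 CPM limit, with far fewer counts. *Bdh1* in homozygous mice was the steadiest case, at 2.96%, and only 0.656% of the tested genes varied less there. *Oxct1* varied more in the transgenic groups, by 13.4% in heterozygous and 12.2% in homozygous mice, close to the medians of all tested genes there (13.2% and 12.4%).

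The main question was whether genes that make, interconvert, burn or export ketone bodies differ between homozygous IEC-*Ppara* and control ileum. None of the 4 members tested was called by edgeR's quasi-likelihood test at an adjusted p under 0.05, a threshold that 52 of 12645 genes (0.411%) passed. None of the members had an unadjusted p under 0.05, where 1019 of the 12645 genes did. The log2 fold changes of the members lay between -0.04 and 0.13, with a median of 0.01, beside a median of 0.00 over all genes tested. The median size of the change, without its sign, was 0.03 for the members and 0.08 for all genes, which were not matched to the members for level.

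*Acat1*, the mitochondrial thiolase that forms and splits acetoacetyl-CoA (ENSMUSG00000032047, chr9:53580522-53610382, minus strand), ranged from 76.8 to 91.9 CPM in controls (median 86.0). It ranged from 76.4 to 91.7 CPM in homozygous mice (median 87.6), and the groups overlapped almost fully. The log2 fold change was 0.00 ± 0.07 (SE), with a 95% interval from -0.14 to 0.14 and an edgeR adjusted p of 0.993.

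*Bdh1*, the mitochondrial β-hydroxybutyrate dehydrogenase (ENSMUSG00000046598, chr16:31422280-31458901, plus strand), ranged from 76.4 to 89.5 CPM in controls (median 80.2). All homozygous libraries fell inside that range, at 78.3 to 84.7 CPM (median 82.5). The log2 fold change was 0.01 ± 0.06 (SE), with a 95% interval from -0.10 to 0.13 and an edgeR adjusted p of 0.978. An antisense gene, *Gm15743*, shares 533 exon bases with *Bdh1* and reached 0.675 CPM at most. The library preparation as described does not mark the strand, and only unambiguous reads were counted. Reads over the bases shared by both genes would then be missing from the counts of each.

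*Oxct1*, the CoA transferase that commits acetoacetate to oxidation (ENSMUSG00000022186, chr15:4026383-4155344, plus strand), ranged from 199.6 to 241 CPM in controls (median 214). Homozygous libraries ranged from 174 to 240 CPM (median 217), and 2 of them lay below every control. The log2 fold change was -0.04 ± 0.10 (SE), with a 95% interval from -0.26 to 0.18 and an edgeR adjusted p of 0.955. The opposite-strand transcript *BC037032* shares 467 exon bases with *Oxct1*, where the same limit holds, and reached 1.69 CPM at most.

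*Slc16a1*, which encodes the monocarboxylate transporter MCT1 (ENSMUSG00000032902, chr3:104638668-104658462, plus strand), had the largest difference among the 4. Controls ranged from 78.3 to 91.4 CPM (median 79.1) and homozygous libraries from 79.6 to 102 CPM (median 88.6), with 2 homozygous libraries above every control. The log2 fold change was 0.13 ± 0.07 (SE), a 1.10-fold difference with an interval from 0.990 to 1.21. Its unadjusted p was 0.0745 and its edgeR adjusted p 0.658, so it did not pass. Any rise in homozygous mice above 1.21-fold for *Slc16a1*, and above 1.13-fold for the other 3 members, lies outside these 95% intervals.

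**Figure D2:**
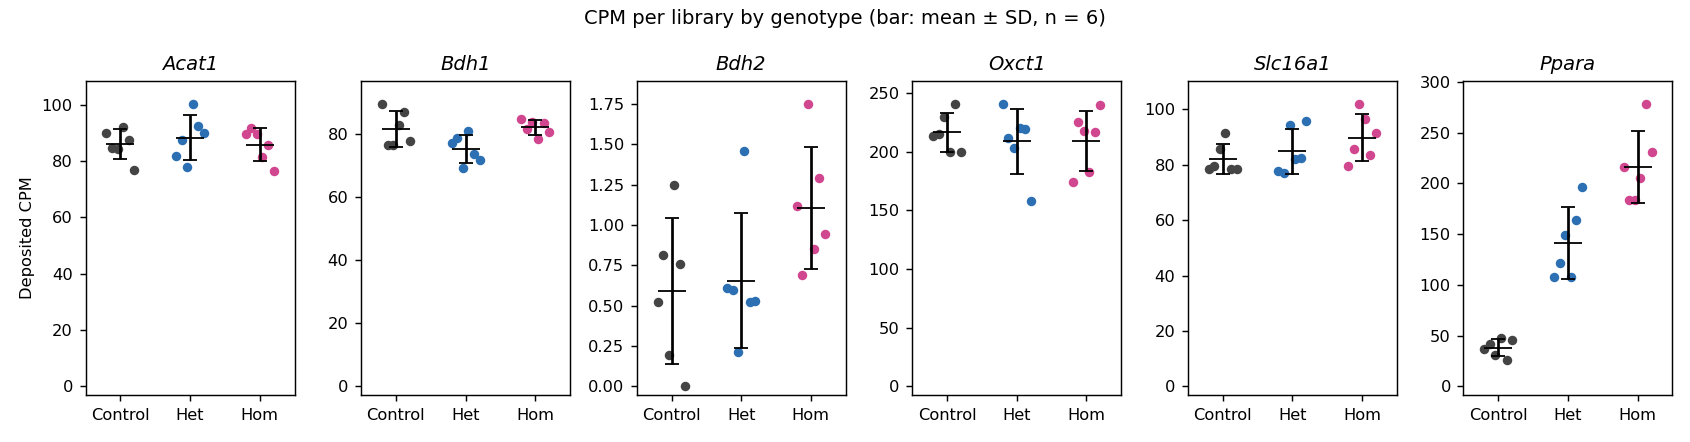
Deposited CPM of the 5 ketone body genes and of *Ppara* in each library (points), with the mean and SD of 6 libraries per genotype (black bars) and a separate linear axis that includes 0 for each gene. The 3 genotypes overlap in every ketone body gene, while all transgenic libraries exceed all controls in *Ppara*.

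In heterozygous IEC-*Ppara* mice compared with controls, again none of the 4 members tested was called by edgeR, where 37 of 12645 genes were (0.293%). *Bdh1* had the lowest value, and *Slc16a1* and *Acat1* had values above 0. No member had an unadjusted p under 0.05, where 669 of the 12645 genes did. *Bdh1* ranged from 69.1 to 80.8 CPM in heterozygous mice (median 75.3), and 3 of 6 of these libraries lay below every control. Its log2 fold change was -0.09 ± 0.06 (SE), with a 95% interval from -0.21 to 0.03. *Acat1* ranged from 77.8 to 100.3 CPM (median 88.5), and 2 heterozygous libraries exceeded every control. Its log2 fold change was 0.07 ± 0.07 (SE). *Slc16a1* ranged from 76.9 to 95.7 CPM (median 82.1), with a log2 fold change of 0.08 ± 0.07 (SE). *Oxct1* ranged from 158 to 241 CPM (median 215), where 1 heterozygous library held the lowest value of all 18, and its log2 fold change was -0.02 ± 0.10 (SE). The adjusted p was 0.9996 for all 4.

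The step from 1 transgene copy to 2 was read from homozygous against heterozygous mice, where edgeR called 1 of 12645 genes (0.00791%) and none of the 4 members. *Bdh1* was the member nearest to a difference. Its homozygous libraries lay between 78.3 and 84.7 CPM, and 4 of 6 of them lay above the highest heterozygous library. In deposited CPM, which are scaled to the library total only, the means were 82.1 ± 2.43 and 75.1 ± 4.43 CPM (SD, n = 6), and a two-sided exact permutation test gave p = 0.0108 without adjustment for the 15 comparisons of single members. With TMM factors, which correct for the composition of each library, edgeR gave a log2 fold change of 0.10 ± 0.06 (SE), an unadjusted p of 0.0814 and an adjusted p of 0.644. The other 3 members had log2 fold changes of -0.07 (*Acat1*), -0.02 (*Oxct1*) and 0.05 (*Slc16a1*), with adjusted p-values from 0.785 to 0.973. The comparisons against controls share the 6 control libraries, and each of these 3 comparisons shares a group with the others.

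With both IEC-*Ppara* groups set together against controls, edgeR called 70 of 12645 genes (0.554%) and none of the 4 members. The log2 fold change was 0.11 ± 0.06 (SE) for *Slc16a1*, 0.04 ± 0.06 for *Acat1*, -0.03 ± 0.09 for *Oxct1* and -0.04 ± 0.05 for *Bdh1*. The narrowest 95% interval was that of *Bdh1*, from -0.14 to 0.06. Across all 34 ways of running the test, including each library left out in turn, the lowest adjusted p of the 4 members tested was 0.464, and DESeq2 and limma called none of these 4 either. Unadjusted p-values under 0.05 arose in 11 single cases, all of *Slc16a1* or *Bdh1*. Each of the 4 members had 33 or 34 p-values in each of the 4 comparisons, from settings that reuse the same libraries. In the main edgeR fit, 669 to 1019 of the 12645 genes had an unadjusted p under 0.05, depending on the comparison. For *Slc16a1*, homozygous against control, the unadjusted edgeR p was 0.035 with only the libraries compared and 0.0391 with the replicate number as a block. For *Bdh1*, heterozygous against control, it was 0.0355 with library size in place of TMM. The lowest of the 11 was that of *Bdh1*, homozygous against heterozygous, with an unadjusted p of 0.0237 by limma trend (adjusted p = 0.722), and edgeR with library size gave 0.0292 there. Without homozygous replicate 1, the unadjusted edgeR p of *Slc16a1* for homozygous against control was 0.0294.

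**Figure D3:**
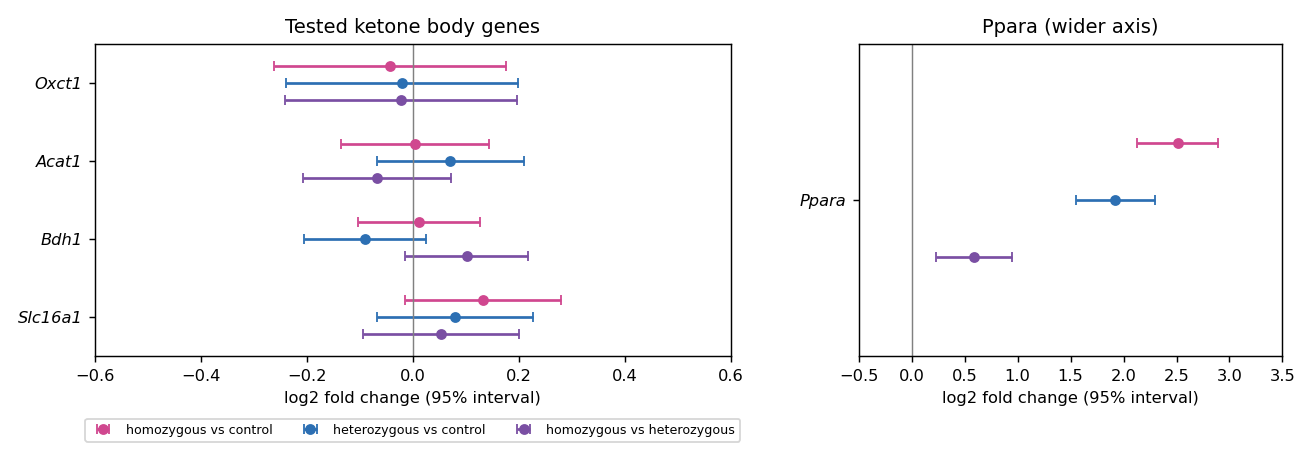
Log2 fold changes from edgeR with 95% intervals for the 4 tested members (left) and for *Ppara* on a wider axis (right), in pink for homozygous against control, blue for heterozygous against control and purple for homozygous against heterozygous. Every interval of a ketone body gene includes 0, and all lie between -0.26 and 0.28, while *Ppara* stands at 2.51 and 1.92 against controls.

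Sex was in the sample labels and was examined in a fit with genotype and sex, where 7 of 12645 genes (0.0554%) were called between 11 male and 7 female libraries and none of the 4 members was. Member log2 fold changes, male against female, lay between -0.06 for *Bdh1* and 0.08 for *Slc16a1*, with adjusted p-values of 0.998 in edgeR. Without adjustment no member had an edgeR p under 0.05, where 429 of the 12645 genes did.

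*Bdh2*, the cytosolic β-hydroxybutyrate dehydrogenase (ENSMUSG00000028167, chr3:135281221-135304426, plus strand), was far less abundant than the other 4. It was represented by 0 to 77 counts per library, where *Bdh1* had at least 2840. Controls ranged from 0 to 1.25 CPM (median 0.640), heterozygous libraries from 0.211 to 1.46 CPM (median 0.562) and homozygous libraries from 0.689 to 1.75 CPM (median 1.03). Only 2 of 6 homozygous libraries lay above every control, and the 3 groups overlapped. Control replicate 6 had 0 counts among 39686305, which allows up to 3 counts or 0.0756 CPM, for counting error only.

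The mean of *Bdh2* over the homozygous libraries was 1.11 ± 0.379 CPM, against 0.589 ± 0.451 CPM over the controls (SD, n = 6), a ratio of 1.88 with p = 0.0606 in a two-sided exact permutation test. It was 0.654 ± 0.419 CPM in heterozygous mice, with p = 0.805 against controls and p = 0.0844 against homozygous mice in the same exact test, whose smallest possible p is 0.00216. No exact permutation p-value of *Bdh2* given here is adjusted for multiple comparisons. When every protein-coding gene with at least 1 count was tested by edgeR, *Bdh2* had a log2 fold change of 0.93 ± 0.55 (SE) for homozygous against control, with an adjusted p of 0.686. The ratio to controls was 1.56 without control replicate 6 (exact permutation p = 0.121), and it was 2.42 without control replicate 4 (exact permutation p = 0.0173), so the value depends on single libraries. Against heterozygous mice the ratio was 1.69. It was 1.49 without heterozygous replicate 3 (exact permutation p = 0.16) and 2.24 without heterozygous replicate 4, the library with the most *Bdh2* of its group, where the exact permutation p was 0.00433, the smallest that 6 against 5 libraries allow.

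*Bdh2* tended to be higher in libraries with more smooth muscle RNA, with exceptions. Each member was set against 4 marker scores (epithelium, smooth muscle, fibroblast and B cell), each score being the mean log2 CPM of its markers in a library, which makes 20 relations. *Bdh2* followed the smooth muscle score with Pearson's r = 0.88 over 18 libraries (permutation p = 1e-05, the smallest that 100000 permutations can give, and 0.0002 after Benjamini-Hochberg adjustment over the 20) and with Spearman's rho = 0.79 (permutation p = 0.00017). Without the 2 libraries farthest from the median score, r was 0.76. Within controls r was 0.97, within heterozygous mice 0.82 and within homozygous mice 0.87, each over 6 libraries. The first 2 values lean on the library of least smooth muscle RNA in each group. In control replicate 6 the log2 value of *Bdh2*, at 0 counts, is set by the prior count. Without it r was 0.84 over 5 controls, and without heterozygous replicate 3 it was 0.42 over 5 heterozygous libraries, a check added after the data were seen. Control replicate 6, with no *Bdh2* count, had the lowest smooth muscle score of all libraries, and homozygous replicate 3 had the highest of both. Heterozygous replicate 4 had the second highest *Bdh2* (1.46 CPM) at a middling score of 7.65, and control replicate 5 had the second highest score (8.13) with 0.760 CPM of *Bdh2*.

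**Figure D4:**
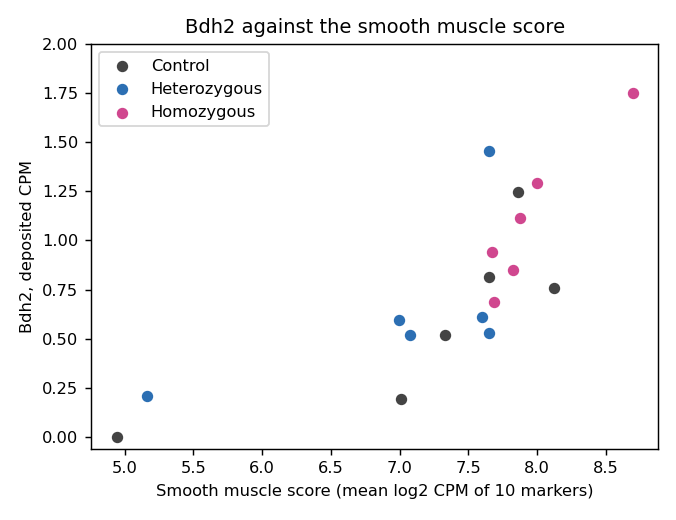
*Bdh2* in deposited CPM against the smooth muscle score of each library (mean log2 CPM of 10 markers), with controls in grey, heterozygous mice in blue and homozygous mice in pink. The points run upward from control replicate 6 at 0 CPM to homozygous replicate 3 at 1.75 CPM, with r of 0.97, 0.82 and 0.87 within controls, heterozygous and homozygous mice for log2 CPM, and heterozygous replicate 4 lies above the others of its score.

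*Bdh2* also followed the fibroblast score (r = 0.70, rho = 0.76, permutation p = 0.00105 for r and 0.00042 for rho, and 0.0105 for r after adjustment), with r = 0.77 without the 2 libraries farthest from the median. With genotype means subtracted from both, r was 0.89 for smooth muscle and 0.64 for fibroblasts. With the smooth muscle score as a covariate, chosen after the data were seen, the edgeR log2 fold change of *Bdh2* fell from 0.93 to 0.39 ± 0.36 (SE) for homozygous against control, and it turned from 0.72 to -0.28 ± 0.38 for homozygous against heterozygous. For heterozygous against control it rose from 0.21 to 0.67 ± 0.36, and for both groups against control it was 0.57 before and 0.53 ± 0.31 after. None of these values was called before or after.

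None of the other 18 relations passed the adjustment. *Oxct1* and *Bdh1* had their highest r with the epithelial score. For *Oxct1* it was 0.49 (rho = 0.59, permutation p = 0.0382 for r and 0.0108 for rho), and the adjusted p for r was 0.206. For *Bdh1* it was 0.34 (rho = 0.49, permutation p = 0.172 for r and 0.0416 for rho), with an adjusted p of 0.43 for r. With genotype means subtracted it was 0.56 (permutation p = 0.0145 and 0.0967 after adjustment). *Bdh2* had an r of -0.49 with the epithelial score (rho = -0.53, permutation p = 0.0412 for r and 0.0263 for rho), with an adjusted p of 0.206 for r. *Slc16a1* had its lowest r with the B cell score, at -0.46 (rho = -0.44, permutation p = 0.0581 and 0.0672), with an adjusted p of 0.229 for r. The B cell score was 5.78 and 5.55 in control replicates 2 and 3, 4.98 in heterozygous replicate 2 and 3.18 in homozygous replicate 1. It was at most 0.671 in the other libraries. *Acat1* had its highest r with the epithelial score too, at 0.44 (rho = 0.35, permutation p = 0.0688 and 0.15), with an adjusted p of 0.229 for r. With the 2 most extreme libraries of each score left out, r was 0.51 for *Oxct1*, 0.45 for *Bdh1*, 0.31 for *Acat1* and -0.48 for *Bdh2* with epithelium, and -0.52 for *Slc16a1* with B cells.

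The genes whose levels rose and fell most like each member from library to library were taken by Pearson's r over the 18 libraries after subtracting genotype means, as a description without a test. Tissue make-up differed between the libraries, and its part in the choice of these genes was not tested. For *Acat1* they were *Ndufb3*, a subunit of respiratory complex I (r = 0.93), *Psmb6*, a proteasome subunit (0.93), and *Mrpl51*, a protein of the mitochondrial ribosome (0.92). For *Bdh1* they were *Timm8b*, which encodes a chaperone of mitochondrial protein import (0.88), *Fh1*, the fumarase of the citric acid cycle (0.86), and *Pla2g10*, a secreted phospholipase (0.84). For *Oxct1* they were *Prim2*, a DNA primase subunit (0.87), and the gasdermin genes *Gsdmc4* (0.86) and *Gsdmc3* (0.85), which have close paralogs, so that reads matching several copies are missing from their counts.

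For *Slc16a1* they were *Lipa*, the lysosomal acid lipase (r = 0.80), *Dipk2a* (0.78) and *Rhbdd1*, a rhomboid protease (0.77), and no gene exceeded 0.8. For *Bdh2* they were *Nap1l5* (0.96), *Prph*, which encodes peripherin, an intermediate filament of peripheral neurons (0.96), and *Ndn*, which encodes necdin, known from neurons (0.95). For *Bdh2*, 2.89% of all tested genes had an r over 0.8, compared with 0.799% for *Acat1*, 0.0633% for *Bdh1* and 0.0395% for *Oxct1*. The 10 markers of enteric neurons and glia summed to 20.5 to 67.0 CPM among controls and 35.9 to 62.6 CPM among heterozygous libraries, against 56.1 to 113 CPM among homozygous ones, and their part in the *Bdh2* values was not tested.

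Other genes of the pathway were listed by role, and 15 of the 20 listed were tested. None of these 15 was called by edgeR in any of the 4 genotype comparisons, and the median log2 fold change for homozygous against control was -0.06. Without adjustment, 1 of the 15 had p under 0.05 for heterozygous against control and 1 for both groups against control. In the other comparisons 0 did. Over all 12645 genes, 669 had an unadjusted edgeR p under 0.05 for heterozygous against control and 819 for both groups against control. There were 1019 for homozygous against control and 962 for homozygous against heterozygous. DESeq2 and limma called none of the 15 either.

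Among the other thiolases and acetoacetate enzymes, 2 of 5 were tested. *Aacs*, the cytosolic synthetase that turns acetoacetate into acetoacetyl-CoA for lipid synthesis, had a control mean of 105 ± 23.8 CPM and a homozygous mean of 98.4 ± 15.5 CPM (SD, n = 6), with a log2 fold change of -0.09 ± 0.17 (SE). *Acat2*, the cytosolic thiolase, stood at 27.1 ± 4.27 and 25.1 ± 3.33 CPM, with a log2 fold change of -0.11 ± 0.15 (SE). *Acat3*, *Oxct2a* and *Oxct2b* stayed under the limit for testing, and none of them exceeded 1.496 CPM in any library.

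Among the other monocarboxylate transporters and chaperones, 7 of 8 were tested. *Bsg*, whose product basigin brings MCT1 to the cell surface, had the highest CPM of the list, with a control mean of 494 ± 35.0 CPM and a homozygous mean of 503 ± 38.3 CPM and a log2 fold change of 0.03 ± 0.07 (SE). *Slc5a8*, a sodium-coupled carrier that takes up short-chain fatty acids, lactate and ketone bodies, stood at 248 ± 47.0 and 225 ± 38.8 CPM, with a log2 fold change of -0.14 ± 0.16 (SE). *Slc16a6*, which encodes a transporter of β-hydroxybutyrate known from liver, was picked out after its values were seen, as the one listed gene with an unadjusted p under 0.05. It had means of 16.8 ± 0.896 CPM (control), 13.5 ± 2.33 CPM (heterozygous) and 14.5 ± 2.15 CPM (homozygous). Its log2 fold change was -0.29 ± 0.11 (SE) for heterozygous against control (edgeR adjusted p = 0.736). *Slc5a12*, a related sodium-coupled carrier also picked out after its values were seen, had the widest interval for homozygous against control, from -1.41 to 0.14 around a log2 fold change of -0.63.

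**Figure D5:**
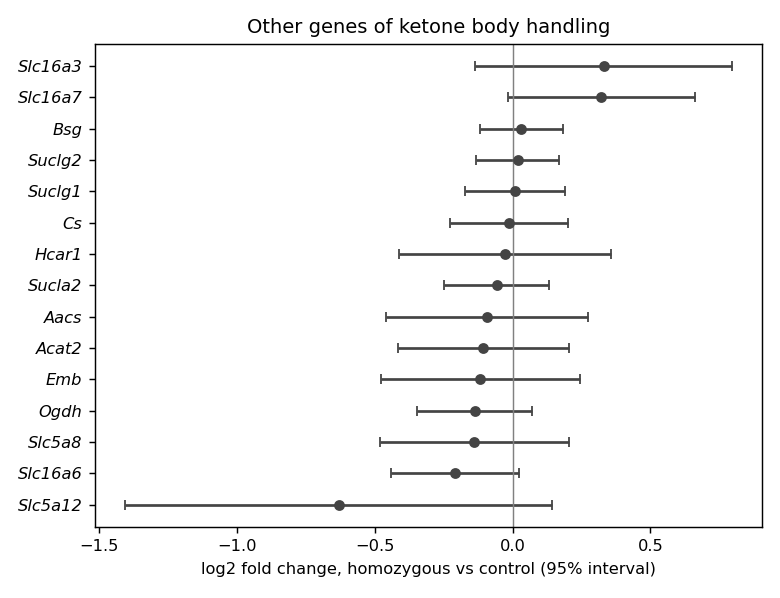
Log2 fold changes, homozygous against control, with 95% intervals from edgeR for the 15 tested genes of ketone body handling outside the 5 members, sorted by value. All 15 intervals include 0, with the widest for *Slc5a12* and among the narrowest those of *Bsg* and *Suclg2*.

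Of the 2 receptors, *Hcar1*, the lactate receptor, had a control mean of 7.89 ± 1.904 CPM and a homozygous mean of 7.73 ± 2.05 CPM, with a log2 fold change of -0.03 ± 0.18 (SE). *Hcar2*, the receptor for β-hydroxybutyrate and niacin, was at or below 2.95 CPM in all libraries and was not tested. All 5 listed genes that make or use succinyl-CoA or open the citric acid cycle were tested. *Ogdh*, of the 2-oxoglutarate dehydrogenase complex that makes succinyl-CoA, had a control mean of 817 ± 74.8 CPM and a homozygous mean of 742 ± 66.5 CPM, with a log2 fold change of -0.14 ± 0.10 (SE). *Cs*, citrate synthase, stood at 664 ± 71.3 and 658 ± 51.5 CPM, with a log2 fold change of -0.01 ± 0.10 (SE). The 3 subunits of succinyl-CoA synthetase (*Suclg1*, *Suclg2* and *Sucla2*), an enzyme that interconverts succinyl-CoA and succinate, were not called in any comparison, and their means in the 3 genotypes ranged from 105 to 172 CPM.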

How the data were processed

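Whole-thickness ileum of 18 mice was analysed, with 1 library per mouse, grouped by the genotype in the sample labels. The authors selected poly-A RNA, aligned reads with STAR to GRCm38 and took unique, unambiguous reads on each gene by featureCounts. These deposited counts are raw. The deposited CPM divide these counts by the library total, the deposited FPKM divide also by gene length, and the deposited log2 CPM are moderated by a prior count not given in the sources used here. Positions are those of the count files.

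Protein-coding genes above 3 CPM in 4 or more libraries (12645, of 13709 genes passing) were compared with edgeR 4.0.16 in R 4.3.3 (glmQLFit, glmQLFTest, TMM, 1 coefficient per genotype, all 18 libraries), with Benjamini-Hochberg adjustment over all genes tested at 0.05. The 3 CPM limit corresponds to at least 116 counts. *Bdh2* failed this filter, so its differences were tested on CPM by exact permutation (924 arrangements) in place of the planned fit. Scores and correlations were computed on log2 CPM (prior count 2), with 100000 permutations, with scipy 1.17.1. The members and gene lists were chosen with earlier results of these data known. Named were the 5 members, *Ppara*, for each list of other pathway genes those called and the 2 of highest mean CPM, and for each member the 3 genes most like it. Exceptions are marked as picked after their values were seen.

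Other settings tried were DESeq2 1.42.0, limma 3.58.1 (voom, and trend on deposited log2 CPM), library size or the size factors of DESeq2 instead of TMM, testing without a filter or with 10 counts required in every library, all biotypes, fits on the compared libraries only, a sex term, blocking by replicate number, robust dispersion, and each library left out in turn. A smooth muscle covariate, and dropping the 2 libraries with least smooth muscle, were chosen after seeing the data. The pipeline was tested on simulated data. No 2 libraries held identical counts. Each mouse gave 1 library, so p-values measure the spread between mice. The authors' fold changes and p-values were not used. Some genes are left out of these results.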

Additional observations from a re-analysis of the deposited data

Results flagged for a closer look

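The 15 sets of 6 libraries formed by 5 genes and 3 genotypes were searched for a library far from the rest, by the gap to its neighbour as a share of the whole range, and 1 set had such a library, where chance gives about 1 in 20. *Bdh2* in heterozygous replicate 4 was at 1.46 CPM (62 counts), and the next highest heterozygous library was at 0.612 CPM, a gap of 0.678 of the range against a critical value of 0.625. Without this library the heterozygous mean fell from 0.654 to 0.494 CPM, and the log2 ratio to controls turned from 0.15 to -0.26. Its smooth muscle score, 7.65, lay among those of the other heterozygous libraries.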

How the results depend on the processing

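No alternative called any of the 4 members tested or of the 15 other pathway genes, and *Bdh2*, fitted only without a filter, was not called there. The count of protein-coding genes called moved more: DESeq2 called 136 (homozygous against control), 80 (heterozygous against control), 10 (homozygous against heterozygous) and 140 (both groups against control), where edgeR called 52, 37, 1 and 70. With the replicate number as a block (replicate block) the last 3 counts became 22, 0 and 43. The sample labels do not state that the numbers pair the mice. Same-numbered libraries correlated between -0.606 and 0.644 in their deviations, with a median of 0.0547 against -0.0341 for other numbers. Of the 18 libraries, 2 correlated best with their own number. These values cannot decide whether the numbers pair the mice, since tissue make-up also differed between libraries. For heterozygous against control the count was 23 with only the libraries compared and 23 without the 2 libraries of lowest smooth muscle score. The single gene called between homozygous and heterozygous mice was lost, leaving 0, with all biotypes, at least 10 counts in every library, DESeq2 size factors, no filter, sex or the smooth muscle score as a covariate, only the libraries compared, or without the 2 libraries of lowest smooth muscle score, and leaving out 1 library gave 0 to 2. At an unadjusted p under 0.05, 962 genes differed there.

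Leaving out 1 library gave 43 to 65 genes in homozygous mice and 25 to 55 in heterozygous mice, each against controls, and 47 to 88 for both groups. Some member values changed sign between settings, and none was called before or after. For homozygous against control *Acat1* was -0.00438 with at least 10 counts, -0.00458 with library size, -0.00189 with limma trend, -0.000285 with no filter, -0.00143 as a ratio of CPM, -0.000620 without the 2 libraries of lowest smooth muscle score, and -0.034 with the smooth muscle covariate (-0.034 with no filter). *Bdh1* was -0.00123 with that covariate and -0.000688 with no filter as well. For homozygous against heterozygous *Oxct1* was 0.00211 with library size, 0.00753 with limma trend and 0.00492 as a ratio of CPM, and *Bdh2* went from 0.72 with no filter to -0.28 with the covariate and no filter. With 1 library left out, homozygous against control ran from -0.017 to 0.031 for *Acat1*, -0.017 to 0.043 for *Bdh1* and -0.0902 to 0.0063 for *Oxct1*. *Oxct1* ran from -0.0597 to 0.052 for heterozygous against control, -0.094 to 0.027 for homozygous against heterozygous and -0.067 to 0.0046 for both groups, and *Bdh2* from -0.26 to 0.51 for heterozygous against control. The r of *Bdh2* with the B cell score turned from -0.0847 to 0.0799 with genotype means subtracted. The cause of these shifts was not tested. *Bdh2* has few counts, 77 at most, and its counts also varied between libraries, with an SD of 19.0 around a mean of 26.2 in controls.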
